A study of Rattus norvegicus with 8 samples.

Results

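Beta- and gamma-synuclein, tau, the amyloid precursor protein, presenilin 2, the beta-secretase and apolipoprotein E were followed in hippocampal neurons after traumatic brain injury (TBI). The 7 genes (Sncb, Sncg, Mapt, App, Psen2, Bace1 and Apoe) were chosen with earlier results of these data known. Their probes were taken from the array by gene name, with no filter on signal. All 7 of 7 were found among 12601 named genes, on 8 of 41012 probes. Mapt had 2 probes and each other gene had 1. CA3 pyramidal neurons were captured by laser from 10 µm frozen sections of the hippocampus of male Sprague-Dawley rats, and their amplified RNA was hybridised to 8 single-colour Agilent whole-genome rat arrays. The comparisons ask how neurons that degenerate after injury differ from neighbours that survive, and how either differs from neurons of uninjured rats. The dying neurons stained with Fluoro-Jade, a dye that labels degenerating neurons, and the surviving neurons of injured hippocampus did not. Both came from rats given moderate fluid percussion injury, in pools of approximately 600 neurons from several rats, with brains removed 24 h later. Sham rats were sham-injured and naïve rats received no treatment. Each of the 4 groups had 2 arrays, and the number of arrays limits the precision. By the study's methods surviving neurons were taken only next to dying ones, so that surviving neurons came from sections that also held dying ones, and the fit does not model this. The methods call the injured pools biological replicates, each from several rats, without saying whether a rat gave to both replicates of a group, and the labels name no animals. By the methods, RNA of dying and of surviving neurons was hybridised in duplicate. The p-values rest on the spread between arrays within groups, estimated for each probe over all 4 groups together. That estimate was drawn toward the spread of the other probes tested.

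The genes belong to pathways studied in neurodegeneration. The amyloid precursor protein is a membrane protein cut by the beta-secretase and then by the gamma-secretase, whose catalytic subunit is a presenilin, to release amyloid-beta. Tau binds and stabilises axonal microtubules and is phosphorylated by several kinases, and synucleins are small proteins of presynaptic terminals. Apolipoprotein E carries lipids between cells of the brain, is made mainly by astrocytes and also by microglia, and binds amyloid-beta.

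Levels are given as scaled signal, the log2 of a probe's signal over the array median. Median signals before scaling were 19.4 and 53.0 for dying neurons, 52.4 and 48.3 for surviving neurons, 16.5 and 16.4 for sham rats and 28.8 and 22.7 for naïve rats. For 6 genes every array had a signal well above background, whereas for Bace1 0 of 8 arrays did. Injured pools were hybridised on a slide of their own and uninjured pools on another, and scan and extraction protocol divided the arrays in the same way. In comparisons with sham the slide, scan and extraction protocol cannot be told apart from the injury. The comparisons of dying and of surviving neurons with sham also share the sham arrays. A difference was called when its adjusted p from limma was under 0.05. Shares of probes near background and of probes called describe the arrays and are not results about the 7 genes.

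The captured pools carried neuronal RNA in every group. All 8 of 8 neuronal markers and at least 6 of 7 pyramidal markers were well above background on each array. Nefm and Stmn2 had no value on some injured arrays because their spots were non-uniform. Over the other 6 neuronal markers the mean scaled signal was 9.23 and 9.22 in sham rats, 8.49 and 8.0 in surviving neurons and 6.05 and 7.36 in dying neurons. Dying pools were lowest for this list.

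**Figure D1:**
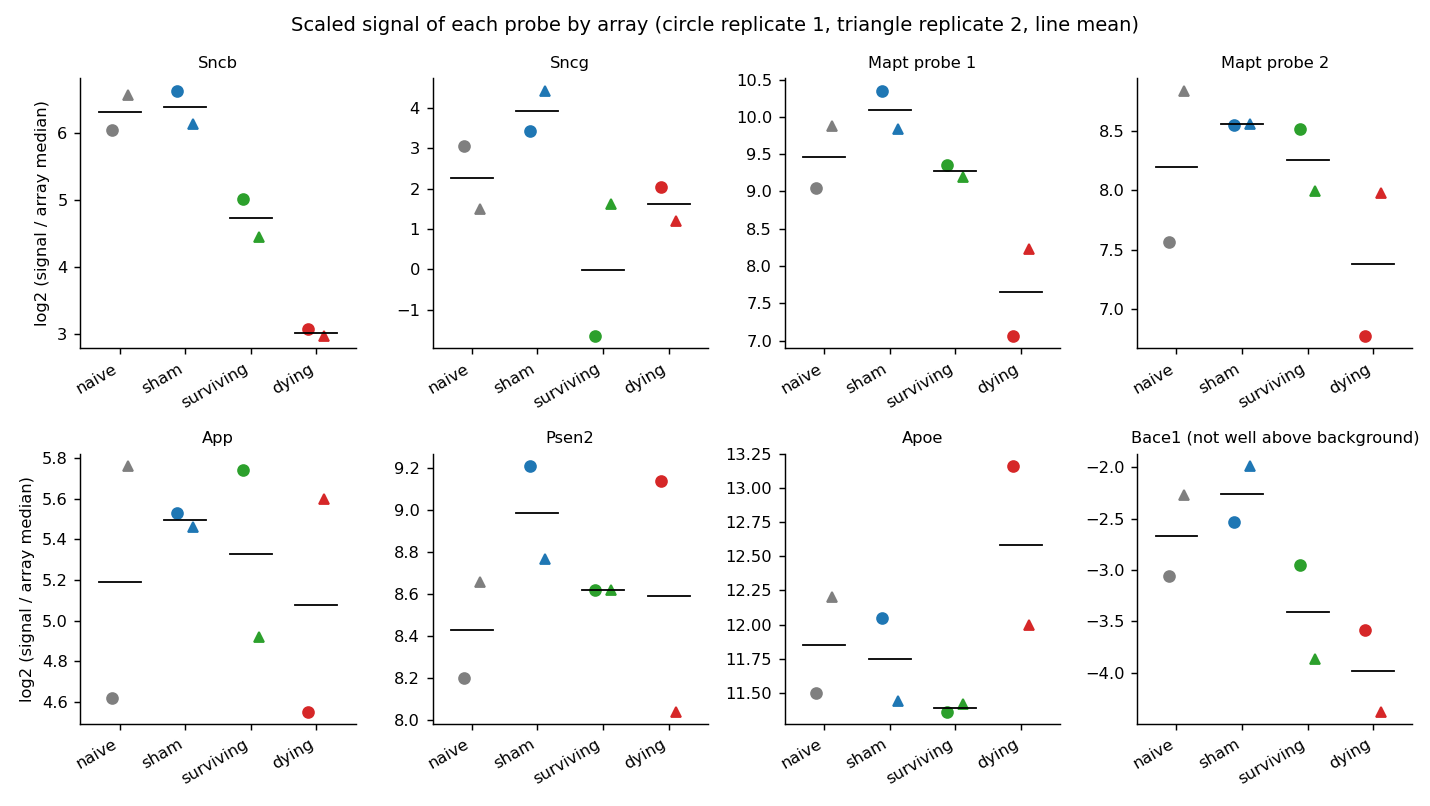
Scaled signal, as log2 of signal over the array median, of each of 8 probes on 8 arrays of naïve, sham, surviving and dying neurons; points are arrays and lines are means of 2 arrays. Sncb lay between 2.97 and 3.07 in dying neurons and at 6.14 or above in sham, and each panel has its own vertical scale.

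Sncb, which encodes beta-synuclein, was lowest in dying neurons. Its scaled signal was 3.07 and 2.97 in dying neurons, 5.02 and 4.45 in surviving neurons, 6.64 and 6.14 in sham rats and 6.05 and 6.58 in naïve rats. Naïve and sham arrays overlapped, both arrays of surviving neurons lay under all 4 of these, and both arrays of dying neurons lay under the surviving. Group means were 3.02 ± 0.07 (SD, n = 2) for dying neurons, 4.74 ± 0.40 for surviving neurons, 6.39 ± 0.36 for sham rats and 6.32 ± 0.37 for naïve rats.

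Against sham, Sncb in dying neurons fell by 3.37 on the log2 scale, with a standard error of 0.48 and a 95% confidence interval from -4.46 to -2.27. This was 10.3-fold and passed the test (limma adjusted p = 0.00237), with 2 of 2 dying arrays under 2 of 2 sham arrays. Across all probes tested in this comparison 43.4% were called, 28.7% were called lower in dying neurons, and 45.7% had both dying arrays under both sham arrays. The 11042 probes called became 2933 without sham replicate 1 and 4918 without sham replicate 2. Among all probes tested, 7.67% had a difference as low as that of Sncb. The call was lost under normexp background correction (-3.03, adjusted p = 0.518), under which 0 probes were called, and adjusted p ranged from 0.000758 to 0.518 over the alternatives.

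In surviving neurons Sncb fell by 1.65 against sham (interval from -2.75 to -0.55, adjusted p = 0.0487), or 3.14-fold. Of all probes tested 17.8% were called, 11.3% were called lower in surviving neurons and 49% had both surviving arrays under both sham arrays. The 4784 probes called became 289 and 524 without sham replicate 1 or 2 and 355 and 361 without surviving replicate 1 or 2. The adjusted p lay close to the threshold and 12 of 15 alternatives lost the call, among them each other scaling of the arrays and each fit without a sham or surviving array. Without sham replicate 1 the difference was -1.40 (adjusted p = 0.288), without sham replicate 2 -1.90 (0.15), without surviving replicate 1 -1.94 (0.153) and without surviving replicate 2 -1.37 (0.311). Over the alternatives adjusted p ranged from 0.0187 to 0.986.

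Between surviving and dying neurons, which shared a slide, Sncb was 1.71 higher in surviving neurons on the log2 scale (interval from 0.61 to 2.82), or 3.28-fold. This did not pass the test (limma adjusted p = 0.133), and 0 of 27206 probes did, although 5729 had an unadjusted p under 0.05 and 5619 of 28162 probes passed without dying replicate 2. The percentage called was 0, while 30.4% of all probes had both surviving arrays above both dying arrays and 21.6% had both under them. The difference kept its direction in 16 of 16 alternatives, from 1.43 to 2.51. Sham and naïve rats differed in Sncb by 0.07 (interval from -1.0 to 1.14, adjusted p = 0.966), a value that turned negative under 4 of 5 other scalings.

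Sncg, the gene of gamma-synuclein, was lower in both injured groups than in sham and varied widely between replicates. The scaled signal of Sncg was 2.05 and 1.19 in dying neurons, -1.65 and 1.62 in surviving neurons, 3.43 and 4.42 in sham rats and 3.04 and 1.5 in naïve rats. The 2 surviving arrays differed 9.60-fold, and the dying arrays lay between the lowest surviving and the highest naïve array. Sncg in sham exceeded naïve rats by 1.65 (interval from -0.68 to 3.98, limma adjusted p = 0.858), which was not called. Both sham arrays lay above both naïve arrays, as for 39% of all probes, and 2.38% of probes had a difference as high. In surviving neurons Sncg fell by 3.94 against sham (interval from -6.33 to -1.55, adjusted p = 0.0378). The call was lost in 9 of 15 alternatives. Without surviving replicate 1 the difference was -2.31 (adjusted p = 0.183), without sham replicate 1 -4.44 (0.143) and without sham replicate 2 -3.44 (0.169), within a range of adjusted p from 0.0300 to 0.504. Under 75th percentile scaling it was -3.16 (0.109).

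In dying neurons the difference of Sncg from sham was -2.30 (interval from -4.64 to 0.04, adjusted p = 0.0972), and it was called when only these 2 groups were fitted (adjusted p = 0.0336, range 0.0336 to 0.518). Surviving neurons differed from dying by -1.64 (interval from -4.02 to 0.75, adjusted p = 0.398), and their arrays overlapped. That difference was -0.01 without surviving replicate 1 and -3.27 without surviving replicate 2. Whether the responses of Sncb and Sncg differ was not tested.

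The promoters of the synuclein genes are shown because both genes were called lower in surviving neurons, with the losses of the call given above. RefSeq sequences around the gene start (GRCr8) were matched by symbol for 6 of the 7 genes, all but Mapt. The motif GGGCGG, on either strand and shown in capitals as GGGCGG or CCGCCC, was present in 33.1% of 33469 promoters of 300 bases.
Sncb, chr17:9851684-9851983, plus strand: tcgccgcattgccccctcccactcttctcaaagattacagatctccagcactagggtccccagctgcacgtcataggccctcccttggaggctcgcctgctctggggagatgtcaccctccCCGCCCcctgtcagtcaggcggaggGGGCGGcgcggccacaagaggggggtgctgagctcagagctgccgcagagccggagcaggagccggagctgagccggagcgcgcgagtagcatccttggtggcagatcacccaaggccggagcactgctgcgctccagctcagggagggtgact
Sncg, chr16:9711287-9711586, minus strand: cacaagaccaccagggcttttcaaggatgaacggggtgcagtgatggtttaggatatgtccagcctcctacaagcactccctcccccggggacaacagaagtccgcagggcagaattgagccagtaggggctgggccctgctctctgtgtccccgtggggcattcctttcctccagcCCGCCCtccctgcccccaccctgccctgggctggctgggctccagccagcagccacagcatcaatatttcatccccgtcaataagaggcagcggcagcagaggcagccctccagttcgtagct
The Sncb window held 2 matches, 67.0% G and C and 18 CG pairs, and the Sncg window 1 match, 61.7% G and C and 8 CG pairs. The median promoter had 51.7% G and C and 7 CG pairs. TATAAA, found in 14.2% of promoters, CCAAT in 37.5%, TGACGTCA in 1.83% and CACGTG in 6.42%, each on either strand, were absent from both windows. The App window, of a gene with no call, also held 1 match to GGGCGG, and Apoe windows held up to 2. Matches describe the letters of the window.

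Mapt, which encodes tau, had its lowest group mean in dying neurons on both probes. On the first probe the scaled signal was 7.06 and 8.23 in dying neurons, 9.36 and 9.19 in surviving neurons, 10.35 and 9.84 in sham rats and 9.05 and 9.88 in naïve rats. On the second it was 6.77 and 7.98 in dying neurons, 8.52 and 7.99 in surviving neurons, 8.55 and 8.56 in sham rats and 7.56 and 8.84 in naïve rats. Dying arrays lay under surviving and sham arrays on either probe, though on the second dying replicate 2 lay just under surviving replicate 2 and above naïve replicate 1, and the dying replicates differed 2.26-fold and 2.30-fold.

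Against sham the first probe fell by 2.45 in dying neurons (interval from -3.74 to -1.16, adjusted p = 0.011), or 5.46-fold. The second probe differed by -1.18 (interval from -2.59 to 0.22, adjusted p = 0.145) and was not called. Its difference was -0.46 under 75th percentile scaling, -0.03 under quantile normalization and -0.37 with the series table of the authors. When probes above background on all 8 arrays set the scale it was -0.17, and under normexp it was -1.55. The call of the first probe was lost without dying replicate 1 (-1.86, adjusted p = 0.0513), without sham replicate 1 (-2.19, 0.0922), under quantile normalization (-1.38, 0.0677) and under normexp (-2.74, 0.522), within a range from 0.00517 to 0.522. The 2 probes carry the accession of the same transcript. Their gap shifted by -1.27 between sham and dying arrays, and 31.1% of 809 transcripts with 2 probes shifted as far in either direction.

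Surviving neurons exceeded dying neurons by 1.63 on the first Mapt probe (interval from 0.32 to 2.94, adjusted p = 0.170) and by 0.88 on the second (interval from -0.55 to 2.31, adjusted p = 0.449). Neither passed the test, and without dying replicate 2 the first probe did (2.22, adjusted p = 0.0362, range 0.0362 to 0.638). Against sham, surviving neurons gave -0.82 (adjusted p = 0.324) on the first probe and -0.30 (0.751) on the second, and the second changed sign under each other scaling (from 0.48 to 0.86), the first under 3 of 5.

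App, the amyloid precursor protein gene, was spotted 10 times on each array. Its scaled signal was 4.55 and 5.60 in dying neurons, 5.74 and 4.92 in surviving neurons, 5.53 and 5.46 in sham rats and 4.62 and 5.76 in naïve rats. The groups overlapped, and the injured replicates differed 1.77-fold and 2.07-fold. The difference was 0.26 between surviving and dying neurons (interval from -1.14 to 1.65, adjusted p = 0.846), -0.42 between dying neurons and sham (interval from -1.79 to 0.96, adjusted p = 0.584) and -0.16 between surviving neurons and sham (interval from -1.55 to 1.23, adjusted p = 0.867). Against sham the value turned positive under 4 of 5 other scalings in dying neurons and under 5 of 5 in surviving neurons. These intervals leave room for changes of over 2-fold in either direction in the first and the third of these comparisons. The SD over the 10 spots was 0.05 to 0.06 on the arrays of uninjured rats and 0.27 to 0.58 on those of injured rats. On surviving replicate 1 they ran from 4.55 to 5.96 with a median of 5.87, and on dying replicate 1 from 3.21 to 4.91 with a median of 4.70, so that the lowest spots lay far under the median.

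Psen2, which encodes presenilin 2 of the gamma-secretase, was 9.14 and 8.04 in dying neurons, 8.62 and 8.62 in surviving neurons, 9.21 and 8.77 in sham rats and 8.20 and 8.66 in naïve rats. The dying arrays spanned the surviving ones. Surviving and dying neurons differed by 0.03 (interval from -1.19 to 1.24, adjusted p = 0.983), and dying neurons and sham by -0.40 (interval from -1.60 to 0.80, adjusted p = 0.551). Surviving neurons gave -0.37 against sham (adjusted p = 0.640), which turned positive under 5 of 5 other scalings, as the value of dying neurons did under 4 of 5. Bace1, the beta-secretase, gave signals from 1.6 to 6.8, whereas signals counted as well above background began between 7.5 and 16, depending on the array. No difference between groups can be given for Bace1, since it has only an upper bound in each group.

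Apoe was highest in a dying array. The scaled signal of Apoe was 13.16 and 12 in dying neurons, 11.36 and 11.42 in surviving neurons, 12.05 and 11.44 in sham rats and 11.5 and 12.20 in naïve rats. Both dying arrays lay above both surviving arrays, and dying replicate 2 lay within the range of the naïve and sham arrays. The dying replicates differed 2.24-fold and no Apoe spot was saturated.

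Surviving neurons differed from dying neurons in Apoe by -1.19 (interval from -2.48 to 0.10, adjusted p = 0.268), which did not pass the test and changed sign under normexp (0.25). Dying neurons differed from sham by 0.83 (interval from -0.44 to 2.11, adjusted p = 0.242). This difference passed the test under 75th percentile scaling (1.56, adjusted p = 0.0268), quantile normalization (1.29, 0.0245), the series table of the authors (1.64, 0.0144) and scaling by probes above background on all 8 arrays (1.85, 0.0132), within a range from 0.0132 to 0.853. Surviving neurons gave -0.36 against sham (adjusted p = 0.672), which turned positive under 5 of 5 other scalings (0.28 to 0.73).

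**Figure D2:**
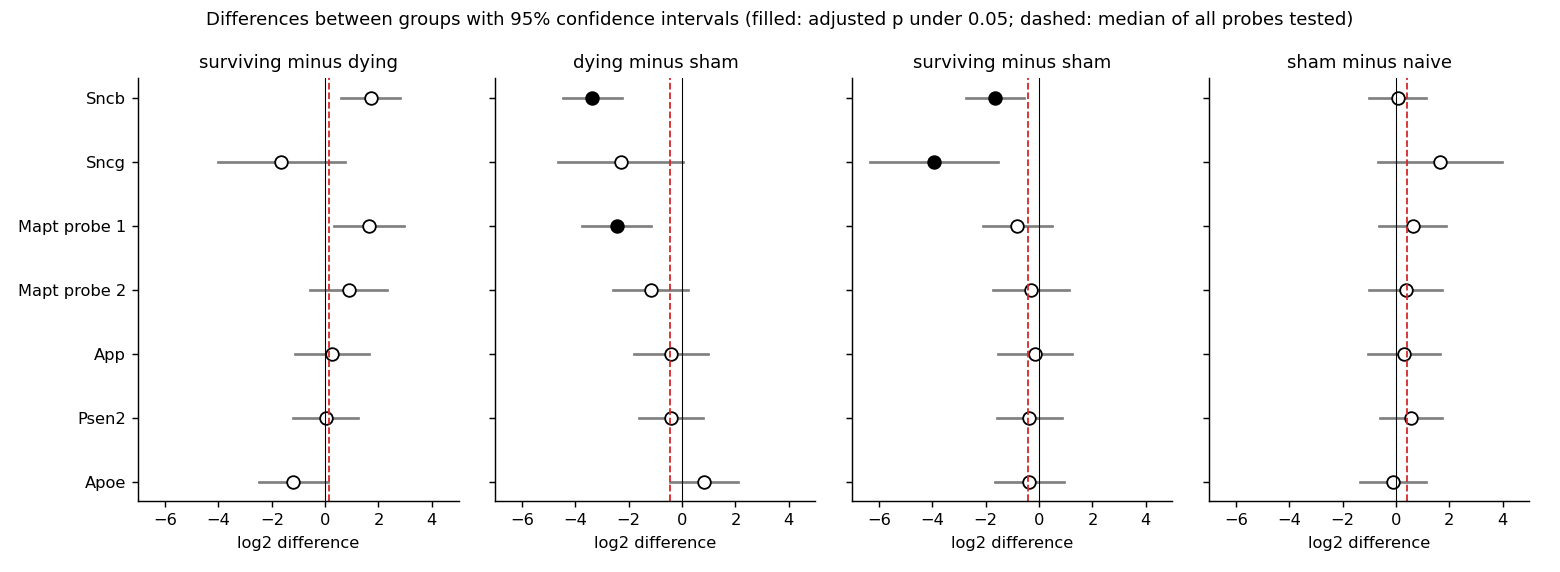
Differences on the log2 scale for 7 probes in 4 comparisons, with 95% confidence intervals from limma; filled points passed the adjusted threshold and the dashed line is the median of all probes tested. Sncb lies at -3.37 and the first Mapt probe at -2.45 between dying neurons and sham.

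The scaling set the zero of every comparison with sham. The median difference of all probes between dying neurons and sham was -0.47 after scaling to the array median, 0.25 after 75th percentile scaling and 0.55 after scaling by probes above background on all 8 arrays. Relative to the median of all probes, dying neurons differed from sham by -2.90 for Sncb, -1.98 for the first Mapt probe, -1.83 for Sncg, 0.05 for App, 0.07 for Psen2 and 1.30 for Apoe. Under quantile normalization and normexp these values were -2.55 and -2.75 for Sncb, -1.60 and -2.46 for the first Mapt probe, -1.84 and -1.33 for Sncg and 1.08 and 0.76 for Apoe. App was at 0.60 and -0.30 and Psen2 at 0.41 and -0.49, so that both changed sign under normexp. In surviving neurons the values relative to the median of all probes, -0.43, were -1.23 for Sncb, -3.51 for Sncg and 0.07 for Apoe. Under quantile normalization and normexp they were -0.83 and -0.61 for Sncb, -3.61 and -1.93 for Sncg and 0.10 and 0.64 for Apoe.

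**Figure D3:**
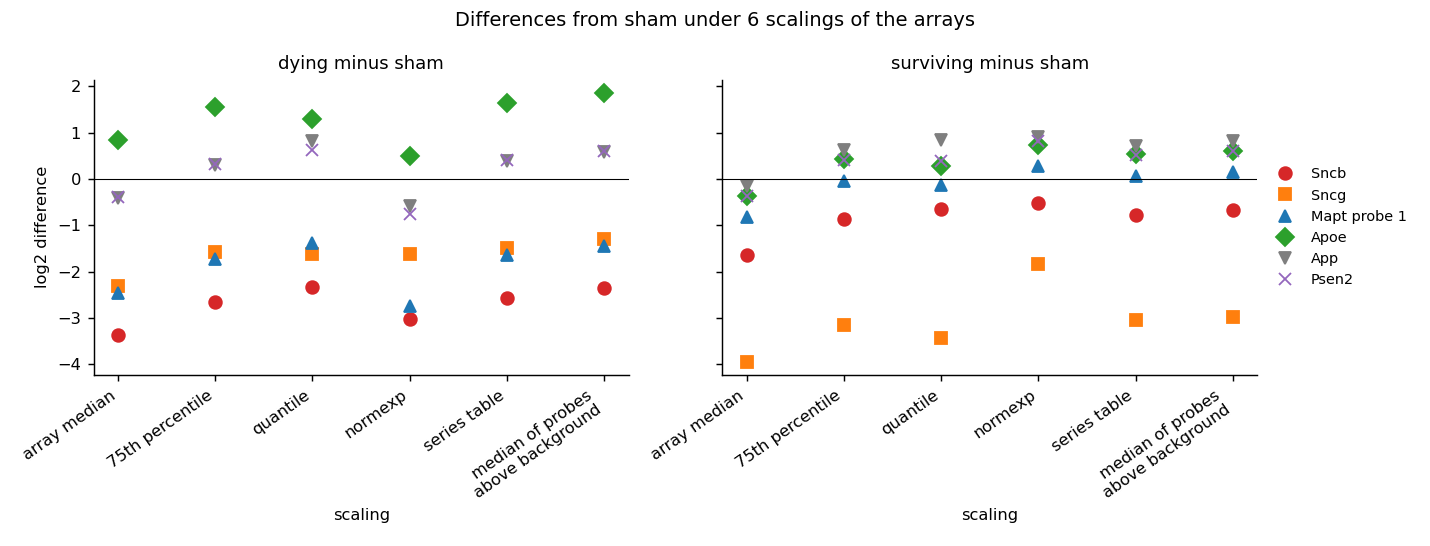
Differences from sham on the log2 scale for 6 probes under 6 scalings of the arrays, dying neurons at left and surviving neurons at right. Sncb ranged from -3.37 to -2.33 in dying neurons, while App and Psen2 changed sign with the scaling.

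Taking 1 probe for each gene, 6 genes were tested. Between surviving and dying neurons 0 of 6 were called, with a median difference of 0.14 beside 0.15 for all probes. Between dying neurons and sham 2 of 6 were called lower, or 33.3%, with a median of -1.36 beside -0.47, and 3 of 6 had both dying arrays under both sham arrays, beside 45.7% of all probes. The share called lower was close to that of all probes, 28.7%, and to the 33.2% called lower among probes that, like these 6, exceeded background clearly on each of the 4 arrays compared, whose median was -0.91. The median of the 6 genes lay from -1.19 to -0.35 under the other scalings. Between surviving neurons and sham 2 of 6 were called lower, beside 11.3% of all probes and 13.5% of those clearly above background on each of the 4, and 0 of 6 under each of the 5 other scalings. The median was -0.59, beside -0.43 for all probes and -0.82 for those clearly above background on each of the 4, and turned positive under 5 of 5 other scalings (0.08 to 0.50). For 5 of 6 genes both surviving arrays lay under both sham arrays, beside 49% of all probes. This count is for array median scaling, and the differences of Psen2 and Apoe, 2 of these genes, turned positive under 5 of 5 other scalings. Between sham and naïve rats 0 of 6 were called and 0 of 20396 probes, or 0%, and 935 probes had an unadjusted p under 0.05. For 2 of 6 genes both sham arrays lay above both naïve arrays, as for 39% of all probes.

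Cell type markers were measured in the same pools, and fewer cells of a type and less RNA per cell cannot be told apart in them. A gene at background in 1 of 2 groups can be tested only through the group where it is high. Counts and medians of lists are therefore given over genes that were well above background on each of the 4 arrays compared, a limit set after the values were seen. Of such probes 33.2% were called lower in dying neurons than in sham and 5.22% higher. Of the neuronal markers 4 of 6 were called lower in dying neurons, as was Sncb, and 0 higher, with a median of -2.38. Not called were Nefl, a neurofilament subunit, at -3.47 (adjusted p = 0.0626), and Syt1, a synaptic vesicle protein, at -1.02 (0.337). In each of 3 other scalings 4 were called lower, and 6 of 8 were in the series table and 0 under normexp. Without sham replicate 1 the count was 1 of 6 and without dying replicate 2 it was 7 of 8. Without Nefm and Stmn2 the summed scaled signal was 6880 and 9390 in naïve rats, 13500 and 11000 in sham rats, 4910 and 4820 in surviving neurons and 2240 and 2460 in dying neurons, and the brightest probe on every array was that of Eno2, a neuronal glycolytic enzyme. Sums of lists were taken before the log. The brightest probe of a list is given as signal and does not rank the genes by their RNA. Tubb3, neuronal tubulin, fell by 2.46 in dying neurons (adjusted p = 0.00606), and Gap43, a growth cone protein, by 2.05 (0.00845). Of the pyramidal markers 1 of 6 was called lower in dying neurons, with a median of -1.38, and 0 under each other scaling, where 1 was called higher when probes above background on all 8 arrays set the scale. Their sum was 7670 and 11700 in naïve rats, 15200 and 12900 in sham, 10100 and 9670 for surviving and 6290 and 6210 for dying neurons, with the probe of Nrgn the brightest. Without dying replicate 2, 4 of 6 pyramidal markers were called lower, and without any other array of these groups 0 were. Nrgn was called at -1.48 (adjusted p = 0.0292), whereas Camk2a at -1.91 (0.0685), Hpca at -1.28 (0.0559) and Neurod2 at -0.42 (0.686), positive under 4 other scalings, were not. Signals were also taken relative to the mean of the 6 neuronal markers summed above, with the sham mean set to 0. On this scale the dying arrays were at -0.14 and -1.55 for Sncb. The first Mapt probe was at 0.14 and 0.01 and the second at 1.4 and 1.29. Relative to the pyramidal markers the values were -0.96 and -2.87, -0.68 and -1.31, and 0.57 and -0.03. The part of neuronal RNA content in the lower Sncb and Mapt was not tested.

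Beside Apoe stand the markers of glia. Of the microglial and macrophage markers 5 of 7 were called higher in dying neurons than in sham, beside 5.22% of all such probes, and 0 lower, with a median of 2.73. Under 3 other scalings 5 were called higher, and 6 of 8 were in the series table and 0 under normexp. Without sham replicate 2 the count was 3 of 7. Itgam was not well above background in sham and is not counted. Without Lgals3, which had no value on dying replicate 2, the summed scaled signal was 122 and 255 in naïve rats, 272 and 245 in sham rats, 334 and 350 in surviving neurons and 1960 and 1110 in dying neurons. The brightest probe was that of C1qa in uninjured rats, of Lgals3 in surviving neurons and, among genes measured on both dying arrays, of C1qb in dying neurons. The paper reports that galectin-3, the protein of Lgals3, was found mainly in dying neurons, so that Lgals3 may not mark microglia alone in these pools. C1qb, a complement subunit made by microglia, was 6.33 and 6.06 in sham and 9.80 and 8.77 in dying neurons, a difference of 3.09 (adjusted p = 0.00547). Tyrobp and Cd68 each rose by 3.60 (0.00295 and 0.00317) and C1qa by 1.88 (0.0217). Not called were Aif1 at -0.15 (adjusted p = 0.826) and Csf1r at -0.35 (0.638), each positive under 4 other scalings. Both were named after their values were seen. Ptprc was not well above background on 7 of 8 arrays.

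Of the astrocyte markers 3 of 9 were called lower in dying neurons, close to the 33.2% of all such probes, and 0 higher, with a median of -0.98 that became 0.03 when probes above background on all 8 arrays set the scale. Under other scalings between 0 and 3 were called lower. Their sum was 1080 and 1390 in naïve rats, 1900 and 1300 in sham rats, 665 and 717 in surviving neurons and 1410 and 630 in dying neurons, with the probe of Slc1a3, a glutamate transporter, the brightest on every array. Glul, glutamine synthetase, fell by 2.02 (adjusted p = 0.0116) and Slc1a2 by 2.30 (0.0101), while Slc1a3 gave -0.38 (0.572) and Aldoc -0.47 (0.521), each positive under 4 other scalings. Without sham replicate 1, 0 astrocyte markers were called. S100b was not well above background on 5 arrays. Dying replicate 1, the array highest for Apoe, had the higher sum of the dying arrays for both the microglial and the astrocyte list, but the mean log2 scaled signal was 4.14 and 4.15 in dying neurons for the microglial list and 3.86 and 3.31 for the astrocyte list. The part of glial RNA in the Apoe signal was not tested.

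Of the endothelial markers 1 of 3 was called higher in dying neurons, beside 5.22% of all such probes, with a median of 0.75. Under 4 other scalings 3 of 3 were called higher, and under normexp 0. Under those 4 the median of all probes lay from 0.21 to 0.55, rather than at -0.47, and the share of all probes called higher is not given. Vwf was called, and Cldn5 at 0.75 (adjusted p = 0.258) and Slc2a1 at 0.70 (0.239) were not. Flt1 and Cdh5 were not well above background in sham and are not counted. Without Flt1, which had no value on a naïve array, endothelial sums were 79.1 and 107 in naïve rats, 131 and 103 in sham, 120 and 88.6 for surviving and 292 and 196 for dying neurons, with the probe of Slc2a1 the brightest, and Tek was not well above background on any array. Of 5 neutrophil and leukocyte markers 0 were well above background on either sham array, and 4 and 3 were on the dying arrays, so that they could enter a test against sham only through the dying arrays, and its count is not given. Their sums, before the log, were 4.49 and 4.24 in naïve rats, 2.05 and 1.79 in sham, 3.09 and 1.77 for surviving and 14.1 and 18.3 for dying neurons. In dying neurons the probe of S100a8 was the brightest, at 2.68 and 3.66 on the log2 scale, where S100a9 was at 1.97 and 2.22. Oligodendrocyte markers were called lower for 3 of 7, beside 33.2%, and for at most 1 under each other scaling, with a median of -1.51 and sums of 1250 and 1120 in naïve rats, 1850 and 1760 in sham, 168 and 199 for surviving and 236 and 185 for dying neurons. Cnp was called at -1.62 (adjusted p = 0.0327), in the array median scaling alone, and Mog at -1.51 (0.11) and Mag at -0.86 (0.236), positive under 2 other scalings, were not. Interneuron markers were called lower for 1 of 4 and for 0 under each other scaling, with a median of -0.46 that became positive under 4 other scalings (0.26 to 0.72). Their sums were 312 and 452 in naïve rats, 415 and 394 in sham, 164 and 147 for surviving and 670 and 158 for dying neurons, with the probe of Vip, Sst or Pvalb the brightest. Vip gave -0.30 (adjusted p = 0.776), positive under 4 other scalings. Not counted were Gad2, not well above background on any uninjured array, and Gad1, not so on either dying array. Without either sham array or dying replicate 1 there were 0 calls for endothelium and for interneurons, and without dying replicate 2 there was 1 for each. For oligodendrocytes there was 1 without either sham array and 2 without either dying array. The part of these cell types in the results of the 7 genes was not tested.

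**Figure D4:**
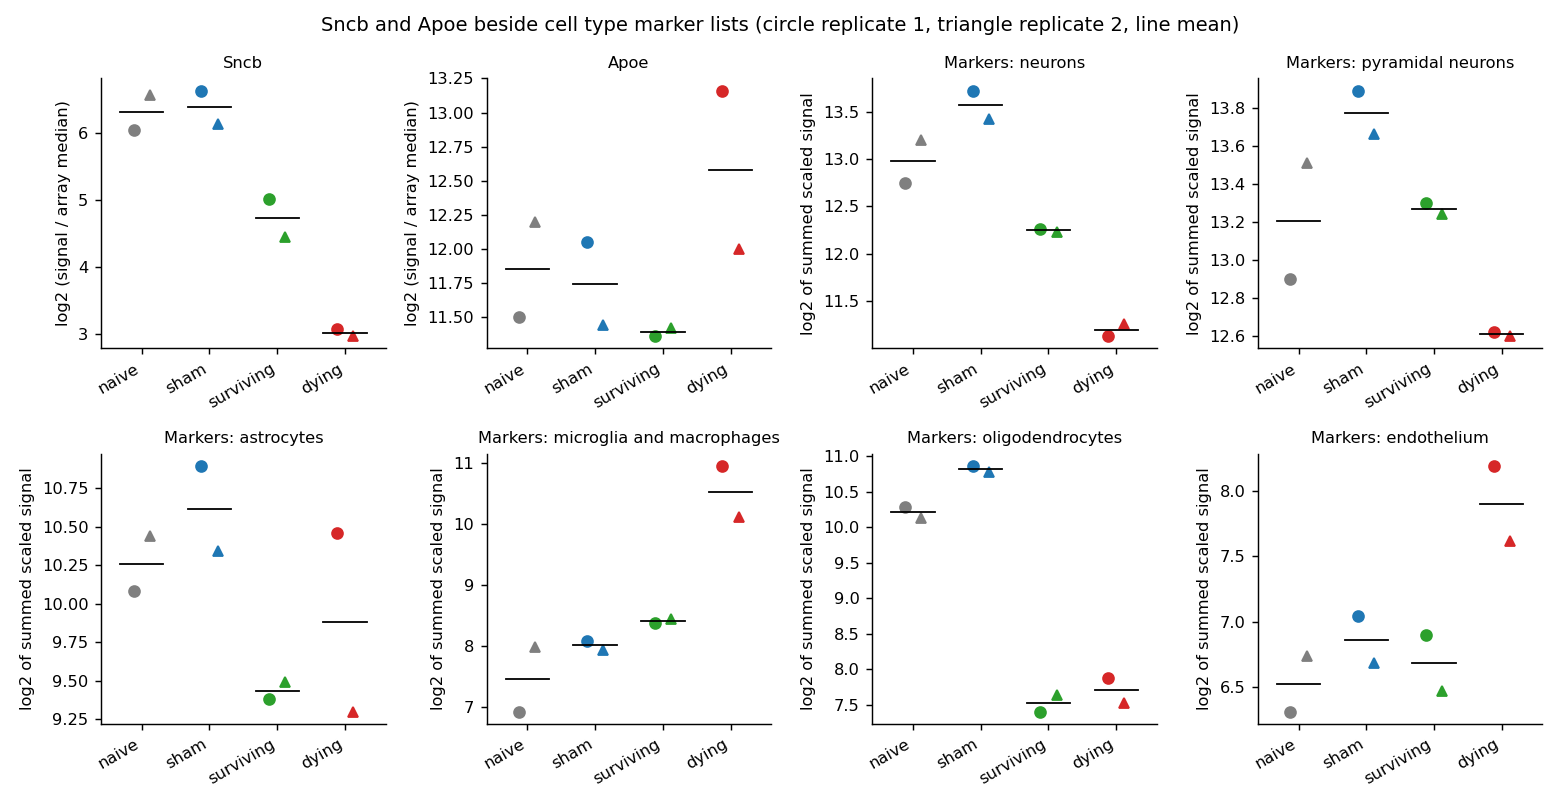
Scaled signal of Sncb and Apoe and log2 of the summed scaled signal of 6 marker lists on 8 arrays; points are arrays, lines are means of 2 arrays, each panel has its own vertical scale and sums leave out Nefm, Stmn2, Lgals3 and Flt1, which lacked a value on some arrays. Neuronal marker sums and Sncb were lowest in dying neurons, where microglial sums were 1960 and 1110 before the log.

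Other genes of the pathways were read from 8 lists, with 1 probe a gene. Of 53 genes well above background on all 4 arrays of dying neurons and sham, 21 were called lower and 1 higher, 41.5% in all beside 38.4% of all such probes, with a median of -1.39 beside -0.91. Called lower were 39.6% of them, beside 33.2%. Under 75th percentile scaling 12 were called lower and 2 higher, under quantile normalization 9 and 4, under normexp 0, with the series table of the authors 8 and 5 of 57, and under scaling by probes above background on all 8 arrays 8 and 7. Without sham replicate 1 the counts were 4 lower and 1 higher, without sham replicate 2 8 and 1, and without dying replicate 1 13 and 1 of 56. Between surviving neurons and sham, 6 of 59 were called lower and 0 higher, 10.2% beside 14.3% of all such probes in either direction and 13.5% lower. The median of -0.80 there became -0.02 under 75th percentile scaling and positive under 4 other scalings (0.10 to 0.28). Without 1 sham or 1 surviving array 0 of these genes were called in surviving neurons. Between surviving and dying neurons 0 of 56 were called, beside 0 of 27206 probes tested.

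Among partners of App, 2 of 4 members of its family and related genes were called lower in dying neurons, beside 33.2% of all probes well above background on the same 4 arrays, with a median of -1.56. Aplp2, a homologue of App, was 10.24 and 9.99 in sham rats, 7.95 and 7.80 in surviving neurons and 7.38 and 6.84 in dying neurons. It fell by 3.0 in dying neurons (adjusted p = 0.00271) and by 2.23 in surviving neurons (0.0176, called in 4 of 6 scalings), so that both injured groups lay under sham while App overlapped. Itm2b fell by 1.71 in dying neurons (0.0227), a call that 4 of the other 5 scalings lost. Itm2c, with the largest gap between surviving and dying neurons in this list (1.19, adjusted p = 0.525), differed from sham by -0.38 in dying neurons (0.767), which turned positive under 4 other scalings, and Itm2a by -1.41 (0.0636).

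Of the secretase genes, 2 of 5 were called lower in dying neurons, beside 33.2%, and 0 higher, with a median of -1.26 beside -0.91. Under the other scalings between 0 and 2 were called lower, and 1 was called higher under quantile normalization and when probes above background on all 8 arrays set the scale. Adam10, the main alpha-secretase of neurons, was 5.08 and 5.01 in sham rats, 2.37 and 2.21 in surviving neurons and 1.24 and 1.70 in dying neurons. It fell by 3.58 in dying neurons (adjusted p = 0.00157) and by 2.75 in surviving neurons (0.00916), and normexp alone among the scalings lost these calls. Not counted were Adam9, not well above background on dying replicate 1, and Ncstn, a gamma-secretase subunit, not so on either dying array. Aph1b, of the gamma-secretase, fell by 1.89 in dying neurons (0.0184, called in 2 of 6 scalings), and Psenen, another subunit, differed by -1.26 (0.0782).

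Adaptors and transport genes of App were called lower for 3 of 5 in dying neurons, beside 33.2%, with a median of -1.59, and for 0 under each other scaling, where the series table had 1 called higher, and for 0 without either sham array or dying replicate 1. They included Klc1, a kinesin light chain, at -1.59 (adjusted p = 0.0351), Apbb3 at -1.67 (0.0236) and Dab1 at -2.10 (0.0385), while Apba2 at -1.39 (0.0641) was not called. Of the amyloid-beta clearance genes 1 of 8 was called higher, beside 5.22% of all such probes, and 0 lower, with a median of -0.22 that became positive under 4 other scalings (0.50 to 0.79). Called higher were 1 under 75th percentile scaling, 3 under quantile normalization and in the series table, 4 when probes above background on all 8 arrays set the scale and 0 under normexp. Except under normexp, the median of all probes there lay from 0.21 to 0.55, rather than at -0.47. The gene called was Ece1, an enzyme that can degrade amyloid-beta, at 6.11 and 5.77 in sham rats, 6.78 and 6.56 in surviving neurons and 8.98 and 8.34 in dying neurons, a rise of 2.72 (0.00386). Vwf, an endothelial marker, rose by 1.93 in the same comparison (0.0206), and its part in the Ece1 signal was not tested. Ide, a protease that degrades amyloid-beta, gave -0.70 (0.289), positive under 4 other scalings, and the lysosomal protease Ctsd 0.21 (0.734), negative under 1 and called higher under 2.

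Among apolipoproteins and lipid receptors 1 of 8 was called lower in dying neurons, beside 33.2%, and 0 higher, while Lrp8, named after its values were seen, was called higher under 75th percentile scaling, in the series table and when probes above background on all 8 arrays set the scale. Without dying replicate 2, 2 of 8 were called lower. The list had a median of -0.97 that became 0.10 under quantile normalization and 0.04 when probes above background on all 8 arrays set the scale. Lpl, lipoprotein lipase, fell by 3.92 (adjusted p = 0.00253). Sorl1, a sorting receptor of App, gave -1.86 (0.0776), with 4.34 and 6.28 in dying neurons. Apoc1 was 6.81 and 4.52 in dying neurons, and like Apoe was higher on dying replicate 1.

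Around tau, 8 of 11 kinase and phosphatase genes were called lower in dying neurons, beside 33.2%, and 0 higher, with a median of -1.83 beside -0.91. Under the other scalings between 2 and 4 were called lower, except that normexp called 0, and 1 was called higher when probes above background on all 8 arrays set the scale. Without sham replicate 1 the count was 0 of 11, without sham replicate 2 it was 2 of 11 and without dying replicate 1 it was 2 of 12. Ppp2ca, a catalytic subunit of a phosphatase that acts on tau, was 8.38 and 7.91 in sham rats, 7.23 and 6.28 in surviving neurons and 4.59 and 5.75 in dying neurons. It fell by 2.97 in dying neurons (adjusted p = 0.00662). The kinases Fyn, at -2.60 (0.0291), and Cdk5, at -1.83 (0.0292), were called in the array median scaling alone, and Ppp3cb, a calcineurin subunit, at -1.55 (0.0845), was not called. Microtubule-associated proteins were called lower for 2 of 6, close to 33.2%, with a median of -1.30, and for at most 1 under each other scaling. Without dying replicate 1 the count was 4 of 6 and without sham replicate 1 it was 0. Of these Map1b fell by 2.45 (0.00524), as did tau on its first probe, and Map6 gave -0.70 (0.288), positive under 4 other scalings.

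Of the synuclein partners and Parkinson pathway genes 3 of 6 were called lower in dying neurons, beside 33.2%, and 0 higher, with a median of -1.54. Under each other scaling 2 were called lower, except that normexp called 0. Uchl1, a neuronal deubiquitinase, was 11.12 and 10.60 in sham rats, 9.74 and 9.40 in surviving neurons and 7.02 and 8.01 in dying neurons, and fell by 3.35 (adjusted p = 0.00314). Vps35, of the retromer, fell by 2.51 (0.00427). Dnajc5, a synaptic vesicle chaperone, gave -1.56 (0.0516), and Stub1, a ubiquitin ligase, -1.39 (0.0608), and neither was called. Sncaip, which encodes a synuclein-binding protein, was not well above background on either sham array and is not counted.

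**Figure D5:**
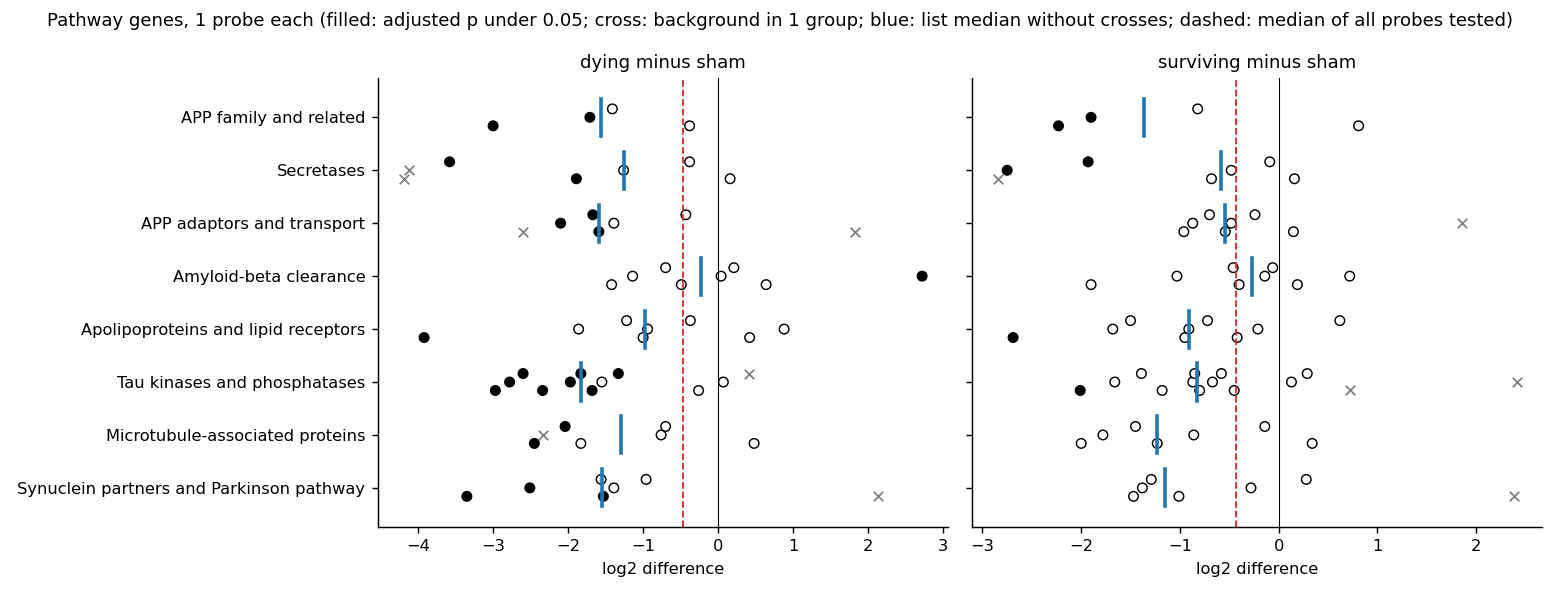
Differences on the log2 scale of pathway genes in 8 lists, dying minus sham at left and surviving minus sham at right; filled points passed the adjusted threshold, crosses are genes not well above background on all 4 arrays compared, blue bars are list medians without crosses and the dashed line is the median of all probes tested. Secretase genes had a median of -1.26 in dying neurons, and amyloid-beta clearance genes had -0.22, which became positive under 4 other scalings.

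The genes whose scaled signals were most like those of each of the 6 genes over the 8 arrays were taken from 5659 named genes, as a description of arrays that share 4 groups. For Sncb they were Egfl9 and Rab4b, each with Pearson's r = 0.995, and Abhd6 (0.992). Rab4b, a small GTPase of membrane traffic, was 6.67 and 6.34 in sham and 4.35 and 4.09 in dying neurons. Those for Mapt included Snx15 (0.998) and Asns (0.996), and for Apoe they were Fbln1 (0.968), Kdelr3 (0.965) and Nme7 (0.959). Psen2 was most like Ndufb2 (0.983), Mtch1 and Rtp4 (each 0.967), Sncg like Bdh1 (0.967), Clic5 (0.956) and Sfrp2 (0.95), and App like Gorasp2 (0.954), MGC114417 and Bcar1 (each 0.931).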

How the data were processed

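Laser-captured neurons of 4 groups were measured on 8 arrays, 2 per group. The intensity values of each array were deposited by the authors as written by Agilent Feature Extraction 9.1.3.1, with background subtracted and spatial trends removed, beside uncorrected intensities and marks for spots well above background. For the series table, the authors deposited signal values that differ from these by a constant per array. Here, non-uniform spots were left out and the rest averaged per probe, then scaled to the array median, with a floor of 0.01 before the log2. A fit of the 4 groups was made with limma 3.58.1 in R 4.3.3 and checked on simulated data. Tables were made with Python 3.11.15, pandas 2.3.3 and scipy 1.17.1. A probe was tested, two-sided, if either group compared had it well above background on 2 of 2 arrays, and p-values were Benjamini-Hochberg adjusted within each comparison. No p-value was adjusted over the 7 genes alone.

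Of 24588 probes with RefSeq accessions, 10730 were found in the reference table. Genes of the lists were read from their brightest RefSeq probe, and marker sums used genes with a value on all 8 arrays; counts of list genes called used those well above background on all 4 arrays compared, a limit added after the data were seen. Up to 4 genes a list were named, those with the largest gap between surviving and dying neurons among genes well above background on all 4 injured arrays whose groups did not overlap. The 7 genes and the lists were chosen with earlier results of these data known. The lists held markers of neurons, pyramidal neurons, interneurons, astrocytes, microglia and macrophages, oligodendrocytes, endothelium, and neutrophils and leukocytes, and 8 families of pathway genes. Alternatives were other scalings, filters and floors, normexp background correction, spots kept, fits of only the groups compared, replicate blocks and leaving out each array. Scaling to probes above background on all 8 arrays and a crossed replicate block were added after the data were seen. The labels name more than 1 amplification kit without saying which pool had which. The study's methods for the arrays name MessageAMP II. The number of arrays limits the precision.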

Additional observations from a re-analysis of the deposited data

How the results depend on the processing

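Of 427 values of 28 differences under alternatives, 338 kept their direction and their side of the threshold, 26 kept the direction and lost the call, 6 gained a call and 57 changed sign. The cause was not tested. The difference of Sncb between surviving and dying neurons kept its direction in 16 of 16 alternatives (1.43 to 2.51), and that between dying neurons and sham in 15 of 15 (-3.62 to -2.33). Scaling to probes above background on all 8 arrays and the crossed replicate block were chosen after seeing the data.

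With 75th percentile scaling App became 0.30 in dying and 0.62 in surviving neurons, Psen2 0.32 and 0.41, and in surviving neurons the second Mapt probe became 0.48 and Apoe 0.42, while Sncb became -0.23 between sham and naïve rats. The median over the genes became -0.64 in dying and 0.18 in surviving neurons, and 4 genes had arrays that did not overlap between sham and naïve rats, beside 45.9% of all probes.

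With quantile normalization App became 0.81 in dying and 0.83 in surviving neurons, Psen2 0.62 and 0.39, and in surviving neurons the second Mapt probe became 0.51 and Apoe 0.28. Between sham and naïve rats App became -0.17, the second Mapt probe -0.13 and Sncb -0.41, and between surviving and dying neurons Psen2 became -0.23. The medians over the genes were -0.38 in dying and 0.08 in surviving neurons against sham, and -0.04 in sham against naïve rats. Dying and sham arrays did not overlap for 6 genes, beside 72.9% of all probes, and 1 probe was called between sham and naïve rats.

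With the series table of the authors App became 0.39 in dying and 0.72 in surviving neurons, Psen2 0.41 and 0.51, and in surviving neurons the Mapt probes became 0.06 and 0.58 and Apoe 0.53. Between sham and naïve rats App became -0.06, the second Mapt probe -0.01 and Sncb -0.29. The medians over the genes were -0.55 in dying and 0.29 in surviving neurons, and 2 probes were called between surviving and dying neurons.

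With the median of probes above background on all 8 arrays App became 0.59 in dying and 0.81 in surviving neurons, Psen2 0.61 and 0.60, and in surviving neurons the Mapt probes became 0.15 and 0.67 and Apoe 0.61. Between sham and naïve rats App became -0.14, the second Mapt probe -0.09 and Sncb -0.37, and Psen2 became -0.01 between surviving and dying neurons. The medians over the genes were -0.35 and 0.38 in dying and surviving neurons and -0.01 in sham against naïve rats, and dying and sham arrays did not overlap for 5 genes, beside 76.5% of all probes.

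With normexp background correction limma called 0 probes in dying neurons against sham (2338 at an unadjusted p under 0.05) and 0 in surviving neurons (2505). In surviving neurons against sham App became 0.90, the Mapt probes 0.28 and 0.86, Psen2 0.81 and Apoe 0.73. Apoe became 0.86 between sham and naïve rats and 0.25 between surviving and dying neurons. The medians over the genes were 1.53 between surviving and dying neurons, 0.50 between surviving neurons and sham and 1.26 between sham and naïve rats, for which 1 gene had arrays that did not overlap, beside 25.7% of all probes.

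Fitting only the 2 groups compared called 12145 probes between surviving neurons and sham and 314 between sham and naïve rats. Keeping only probes well above background on all 4 arrays, which tests fewer probes, called 7039 in dying and 2865 in surviving neurons. Signal over background limits Bace1, whose differences are not given.

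The labels do not say whether equally numbered arrays are paired. Across probes the deviations of equally numbered arrays had r = -0.194 between surviving and dying neurons. For the other pairs of groups r lay from -0.061 to 0.071. These values cannot decide on pairing, since each deviation rests on the gap between the 2 arrays of a group. With a replicate block limma called 0 probes between surviving and dying neurons, 10248 in dying neurons against sham and 3353 in surviving neurons, and Sncb in surviving neurons lost its call (adjusted p = 0.0828, range 0.0187 to 0.986). With the crossed replicate block 0 probes were called between surviving and dying neurons.

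Leaving out each array in turn assumes that a lone array varies like the other groups. The probes called ranged from 0 to 5619 between surviving and dying neurons, the highest without dying replicate 2, from 2933 to 13097 between dying neurons and sham, and from 289 to 524 between surviving neurons and sham. App ranged from -0.27 to 0.78 between surviving and dying neurons, from -0.94 to 0.11 in dying and -0.57 to 0.25 in surviving neurons against sham, and from -0.26 to 0.87 between sham and naïve rats. Psen2 ranged from -0.52 to 0.58 between surviving and dying neurons and from -0.95 to 0.15 between dying neurons and sham. Between sham and naïve rats Sncb ranged from -0.19 to 0.33, the second Mapt probe from -0.29 to 1.0, Apoe from -0.46 to 0.25 and the median over the genes from 0.01 to 0.83. Genes whose arrays did not overlap numbered 3 to 6 between surviving and dying neurons, beside 66.9% to 88.5% of all probes, 4 to 5 between dying neurons and sham, beside 84.6% to 92.8%, and 3 to 5 between sham and naïve rats, beside 56.5% to 89.3%.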
